A study of Mus musculus with 22 samples.

Results

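Cultured aortic smooth muscle cells treated with tumour necrosis factor (TNF) were compared with the same kind of cells left unstimulated, using 6 of the 22 arrays of the series. The 6 arrays were chosen by the treatment label alone, 3 labelled TNF and 3 labelled none, so no measured value entered the choice. All cells in both groups came from the suprarenal aorta of male C57BL/6 mice of the TNC-KO genotype, which lack tenascin C (TNC), a matrix glycoprotein of injured tissue. They were dispersed with enzymes and grown with fetal bovine serum. The treated cells received TNF-alpha at 10 ng/mL, for 24 h by the design text (the hours written in the samples' own labels run on from sample to sample and were not used), and neither group received exogenous TNC. Age and passage were not given in the sources used here. The absence of TNC from cells and medium is shared by both groups and limits both as a model of normal aorta. Of the other 16 arrays, 8 held the same cells with 10 µg/mL exogenous TNC, 4 with and 4 without TNF, and 8 held RNA pools of whole aorta. The titles of the 4 arrays with TNC alone read "with exogenous TNC or TNF". Their treatment label, "exogenous TNC", was followed. The design text speaks of independent cultures, but the sample labels do not tie an array to a culture, so the p-values measure the spread between these arrays.

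TNF is a cytokine of macrophages and other immune cells. It binds the receptors encoded by Tnfrsf1a and Tnfrsf1b, which release NF-kB factors from their inhibitors and start MAP kinase cascades that act through AP-1 factors. In many cell types the first wave includes interferon regulatory factors and interferons, whose receptors then activate STAT factors. In vascular smooth muscle, inflammatory cytokines are known for lowering contractile genes, and genes of the contractile programme are driven by serum response factor bound to a sequence called the CArG box. The account below follows transcription factors, receptors, transporters and channels, extracellular matrix and metabolic enzymes rather than the cytokines themselves.

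Values are array signals in the linear units of the authors' table, in which every array has the same mean. Signals of different genes come from different probes and are not compared with each other. Changes are given on the log2 scale as TNF minus untreated, with a standard error (SE) from a limma fit over the 14 cell arrays, and a gene is said to have risen or fallen only where its Benjamini-Hochberg adjusted p was under 0.05 over all 15636 genes tested. At that threshold 2200 genes were higher under TNF (14.1%) and 3135 were lower (20.0%). The change was at least 2-fold for 672 of the higher genes (4.3%) and 785 of the lower ones (5.02%). The 3 TNF arrays lay wholly above or wholly below the 3 untreated arrays for 49.6% of the tested genes. Most changed genes named below were picked partly because their groups did not overlap, so that trait is no support for them. Median signals were 61.6 to 64.6 in untreated and 55.7 to 60.8 in TNF arrays, and the median change of all tested genes was -0.06. Centring each array on its median raised all changes by 0.11 and turned the split to 2610 higher (16.7%) and 1932 lower (12.4%), so small falls depend on this choice. Replicate arrays correlated at 0.968 to 0.969 across genes.

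The smooth muscle label was checked against marker genes. The 10 smooth muscle markers summed to 61670 to 66297 signal units in untreated cells and 28710 to 31506 under TNF, and 9 of the 10 fell. Acta2, smooth muscle actin, read 23241, 22235 and 23322 without and 16438, 15304 and 15851 with TNF on its brightest probe set. That probe set changed by -0.53 ± 0.06 and stayed bright in every array. Dimmer probe sets of Acta2 were also called lower. Their mean signals went from 593 to 55.7 (-3.43 ± 0.19) and from 41.5 to 22.4 (-0.90 ± 0.25). The size of the Acta2 fall thus depends on the probe set, and the cause was not tested. Cnn1, the actin-binding protein calponin, went from 1572, 1022 and 1292 to 80.8, 56.6 and 67.8, a log2 change of -4.24 ± 0.41 (limma adjusted p = 1.01e-05). Des was the exception (-0.47 ± 0.52, adjusted p = 0.544). Of 8 endothelial markers Emcn read 9803 to 14206 and Pecam1 3097 to 4200 over the 6 arrays, Tie1 and Tek 213 to 364, and Kdr 44.5 to 98.1. Of these 8, 2 rose (Pecam1 and Cdh5) and 2 fell (Vwf and Emcn), so their sum hides opposite changes. It came to 20155 to 22729 untreated and 19152 to 20294 under TNF. After centring each array on its median the call of Emcn was lost, with 3 endothelial markers higher and 1 lower. The 8 macrophage markers summed to 727 to 1154 and 764 to 848, and the lymphocyte markers Cd3e, Cd3g, Cd2 and Cd79a lay below the 30th percentile of signal in all 6 arrays. The 6 fibroblast markers summed to 10368 to 11355 and 23804 to 25095, with Pdgfra and Dcn called higher and most of the sum in Dcn. The other 4 did not pass the test, and Pi16 changed by -0.77. Of 3 neural or Schwann markers S100b fell from 846, 622 and 586 to 149.6, 158 and 119, Th rose from dim signals of 3.72, 13.2 and 26.6 to 49.7, 45.3 and 33.0, and Sox10 changed by 0.72 ± 0.51 without passing the test. The call of Th was lost in 6 of the 16 alternative fits, among them the fit of the 6 arrays alone. The part of other cell types in the changes below was not tested, and in bulk RNA fewer cells of a type cannot be told apart from less RNA per cell. Tnc itself, absent by genotype, read 122, 144 and 100.4 untreated and 94.1, 83.8 and 92.7 under TNF, a change of -0.42 ± 0.16 that did not pass the test (adjusted p = 0.0635). Whether its probes lie in the altered part of the gene was not tested.

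The sequences that follow are the 250 bases before the annotated start of 6 genes whose changes are described here, shown because they hold motifs of the pathways named above. They come from RefSeq on mouse build GRCm38.p6, are written 5′ to 3′ on the gene's strand, and carry the matched motif in capitals. Nfkb2 lies at chr19:46304487-46304736 (plus strand) and Serpina3n at chr12:104406458-104406707 (plus strand), both with an NF-kB motif. Stat2 lies at chr10:128270248-128270497 (plus strand) and Cybb at chrX:9469325-9469574 (minus strand), with 1 and 3 IRF motifs. Trpc6 lies at chr9:8543892-8544141 (plus strand) and Myl9 at chr2:156775214-156775463 (plus strand), each with a CArG box.
Nfkb2: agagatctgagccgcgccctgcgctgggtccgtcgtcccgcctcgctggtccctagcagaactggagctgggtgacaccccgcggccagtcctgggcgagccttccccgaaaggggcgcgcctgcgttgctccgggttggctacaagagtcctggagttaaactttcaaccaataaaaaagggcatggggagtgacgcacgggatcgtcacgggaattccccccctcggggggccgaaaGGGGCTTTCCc
Serpina3n: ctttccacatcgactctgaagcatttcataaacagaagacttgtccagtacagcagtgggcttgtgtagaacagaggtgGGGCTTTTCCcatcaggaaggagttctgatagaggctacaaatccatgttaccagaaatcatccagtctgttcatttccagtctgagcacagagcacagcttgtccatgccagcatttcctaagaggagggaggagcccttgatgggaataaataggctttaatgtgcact
Stat2: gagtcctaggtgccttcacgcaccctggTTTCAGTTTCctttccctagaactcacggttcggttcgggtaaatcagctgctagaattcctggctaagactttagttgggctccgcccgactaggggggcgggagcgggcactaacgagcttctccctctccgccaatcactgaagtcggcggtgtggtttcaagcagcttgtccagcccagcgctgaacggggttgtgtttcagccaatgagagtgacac
Cybb: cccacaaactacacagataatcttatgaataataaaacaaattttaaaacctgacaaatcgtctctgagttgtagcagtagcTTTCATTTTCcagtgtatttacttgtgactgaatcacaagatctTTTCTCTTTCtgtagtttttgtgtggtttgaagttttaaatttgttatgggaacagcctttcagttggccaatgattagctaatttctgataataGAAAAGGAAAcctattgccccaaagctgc
Trpc6: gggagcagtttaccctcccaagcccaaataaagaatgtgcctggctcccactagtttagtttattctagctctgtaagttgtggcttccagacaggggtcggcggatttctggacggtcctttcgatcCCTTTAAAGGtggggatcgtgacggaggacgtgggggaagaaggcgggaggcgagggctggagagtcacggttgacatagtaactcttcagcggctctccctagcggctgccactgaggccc
Myl9: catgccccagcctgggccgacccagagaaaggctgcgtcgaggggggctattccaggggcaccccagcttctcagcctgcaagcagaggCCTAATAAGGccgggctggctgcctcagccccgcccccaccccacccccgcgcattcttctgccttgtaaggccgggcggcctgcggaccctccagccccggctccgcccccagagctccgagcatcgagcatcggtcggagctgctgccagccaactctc
The first 4 of these genes rose and the last 2 fell. They are a choice from the named genes, in which motif and direction did not always go together. A CArG box was also in Lama2, which fell, in Tigar, which rose, and in Ldha and Gstp1, which did not pass the test. The IRF motif was also in Mmp13 and Tll1, which rose, and in Itga3, which did not pass the test. The NF-kB motif was searched as GGG, 2 free bases and TTTCC, and the IRF motif as GAAA, 2 free bases and GAAA, on both strands, in windows from 250 bases before to 50 after the start. The CArG box was searched by its usual consensus. Only the window of the first listed start of each gene was counted. Of 12498 tested genes with a window, 1.59% held the NF-kB motif (1.62% of all 27025 genes with a window). The share was 6.27% of the 510 genes that rose at least 2-fold and 0.34% of the 594 that fell at least 2-fold. The IRF motif was in 3.01% of tested genes (3.49% of all genes with a window), 12.94% of the risen set and 1.52% of the fallen set. For the CArG box the shares were 1.33% (1.57%), 1.76% and 2.86%. For the AP-1 motif TGANTCA they were 5.82% (7.93%), 11.37% and 5.39%, so the fallen set lay near the tested genes. The IRF and NF-kB searches can overlap where their letters allow it, and a match is a string of letters, not a measured binding site.

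The 34 gene lists hold 1633 genes, of which 1512 were found by symbol among the named probe sets and 1443 passed the filter on dim signals. The filter asked for signal in at least 3 of the 14 cell arrays, so a gene could enter through its TNF arrays alone. Over all lists 328 genes rose (22.7%) and 427 fell (29.6%), against 14.1% and 20.0% of all tested genes. Falls outnumbered rises over all tested genes, so the counts of each list below are to be read against those shares. By class, 60 of 271 transcription factors rose (22.1%) and 93 fell (34.3%), and 68 of 286 receptors rose (23.8%) and 84 fell (29.4%). Among 233 transporters and channels 62 rose (26.6%) and 49 fell (21.0%). Among 235 matrix genes 55 rose (23.4%) and 84 fell (35.7%), and among 422 metabolic enzymes 84 rose (19.9%) and 117 fell (27.7%). The transporters were the class with more rises than falls. After centring, rises outnumbered falls among receptors (80 and 73) and metabolic enzymes (98 and 72) as well, while transcription factors (63 and 71) and matrix genes (59 and 61) kept more falls. The plot of calls by list shows how unevenly these changes were spread.

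**Figure D1:**
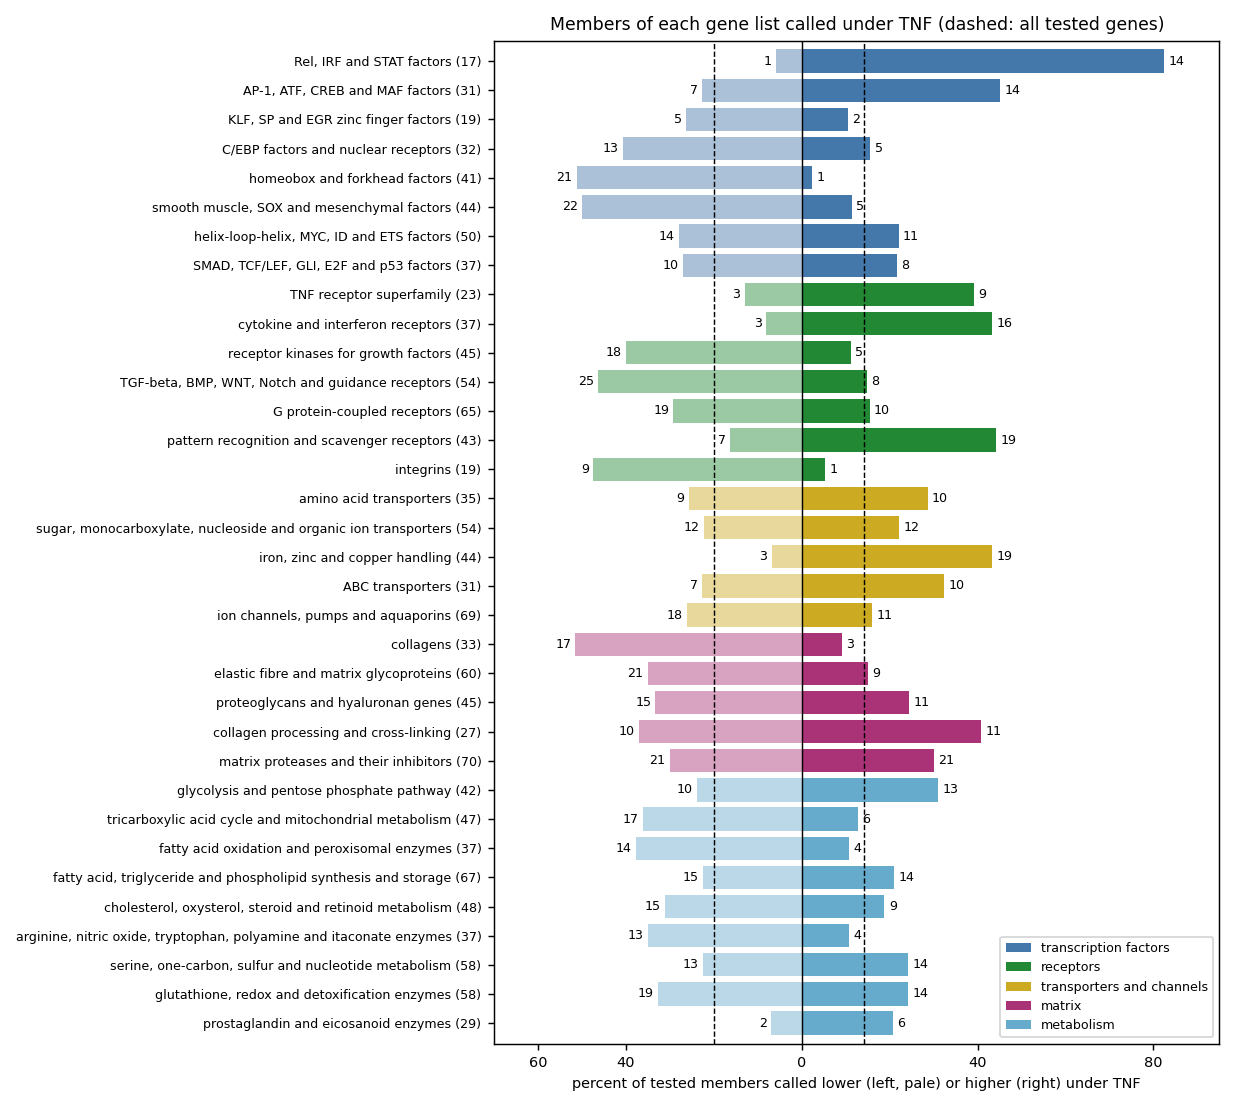
Percent of the tested members of each of the 34 gene lists called higher (right, full colour) or lower (left, pale) under TNF, with the number tested in brackets and the number called at each bar, against the dashed lines for all 15636 tested genes (14.1% higher, 20.0% lower). The list of Rel, IRF and STAT factors reaches 82.4% higher, and the longest bars to the left are collagens at 51.5% and homeobox and forkhead factors at 51.2%.

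Among transcription factors, those that act directly below the TNF and interferon receptors rose together. Of 17 Rel, IRF and STAT factors 14 rose (82.4%) and 1 fell (5.9%), with a median change of 1.05. Irf7, which drives interferon genes, read 524, 263 and 423 in untreated cells and 7779, 7474 and 7234 under TNF, a log2 change of 4.27 ± 0.28 (limma adjusted p = 3.62e-07). Its lowest TNF array was far above its highest untreated array. Irf1, an early activator of the same programme, went from 752, 769.7 and 845 to 6433, 6396 and 6356 (3.02 ± 0.06, adjusted p = 5.37e-11). Relb and Nfkb2 encode the subunits of the non-canonical NF-kB dimer. Relb read 284, 261 and 265 untreated and 2106, 2073 and 2062 under TNF, a change of 2.95 ± 0.07. Nfkb2 read 260.4, 274 and 199 untreated and 950.0, 1067 and 1157 under TNF, a change of 2.12 ± 0.14. Groups that do not overlap were a condition for naming both genes, and their arrays within a group were close. Stat2, which carries the interferon signal to the nucleus, rose by 2.09 ± 0.21, whereas Stat5b read 926, 1121 and 983 untreated and 969, 1025 and 1017 under TNF and did not pass the test (adjusted p = 0.976). Co-factors of NF-kB moved the same way: Bcl3 rose from 177, 117 and 149 to 1277, 1287 and 1258 (3.13 ± 0.11) and Nfkbiz by 1.39 ± 0.10.

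The AP-1 and immediate early genes split. Of 31 AP-1, ATF, CREB and MAF factors 14 rose (45.2%) and 7 fell (22.6%). Junb read 671, 654 and 628 untreated and 1883, 1779 and 1964 under TNF, a change of 1.53 ± 0.13, while Fos, its dimer partner, went from 2308, 2471 and 2665 to 719, 883 and 690.5 (-1.71 ± 0.31, adjusted p = 0.00112). The jun member thus rose and the fos member fell. Batf2, an interferon-inducible member of the family, was near the dim end in untreated cells at 45.3, 65.7 and 10.4 and read 301, 383 and 312 under TNF. Its change of 3.40 became 2.41 when 32 units were added before taking logs. Among 19 KLF, SP and EGR zinc finger factors 2 rose (10.5%) and 5 fell (26.3%), against 14.1% and 20.0% of all tested genes. Only 3 fell after centring or without untreated array 2. Egr3, a serum-responsive early gene, showed the deepest fall of any listed gene, from 763, 740.2 and 655 to 22.1, 44.7 and 47.8, a change of -4.31 ± 0.29 (adjusted p = 5.21e-07). All 3 TNF arrays were close to the dim end of the scale. Egr1 fell from 6869, 6422 and 7544 to 1752, 1728 and 1861 (-1.96 ± 0.19) but stayed bright. Klf2, a factor with anti-inflammatory roles in vessels, fell by 1.46 on the log2 scale, and Klf4 and Klf6, both linked to smooth muscle phenotype, were the 2 that rose, by 0.68 and 0.52.

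Nuclear receptors fell more often than they rose. In the list of C/EBP factors and nuclear receptors 5 of 32 rose (15.6%) and 13 fell (40.6%), with a median of -0.51. Of all tested genes 14.1% rose and 20.0% fell. Nr4a1, an early-response orphan receptor, read 1100, 1066 and 1048 untreated and 117, 115 and 132 under TNF, a change of -3.15 ± 0.25. Pparg, the lipid-sensing receptor of fat and vessel wall, went from 748, 848 and 816 to 249.8, 194 and 293 (-1.73 ± 0.14, adjusted p = 2.2e-06). The thyroid hormone receptor gene Thra fell by 1.14 and the progesterone receptor gene Pgr by 1.43, and the fall of Pgr was lost when the median over its probe sets was used. Cebpb, a factor of acute phase genes, moved the other way, from 5411, 5217 and 5337 to 11077, 11839 and 11767. Nr3c1, the glucocorticoid receptor gene, read 3321, 3477 and 3427 untreated and 3404, 3671 and 3806 under TNF and did not pass the test (adjusted p = 0.439).

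Patterning and lineage factors fell more often than they rose. Of 41 homeobox and forkhead factors 21 fell (51.2%) and 1 rose (2.4%), and after centring 16 fell. Dlx5, a homeobox factor of skeletal development, read 687, 662 and 554 without and 88.5, 65.2 and 81.1 with TNF, a change of -3.02 ± 0.15 (adjusted p = 5.07e-08). Every TNF array held a small part of the untreated signal. Foxp2 fell by 1.96 and Prrx2 by 1.40, while Prrx1 read 5876, 5512 and 5396 untreated and 4699, 4878 and 4874 under TNF (adjusted p = 0.222). In the list of smooth muscle, SOX and mesenchymal factors 22 of 44 fell and 5 rose. The fallen number dropped to 14 after centring. Mef2c, a muscle factor, went from 1161, 915 and 1076 to 214, 247 and 262 (-2.12 ± 0.14). Sox9, the cartilage factor, went from 819, 809.8 and 726 to 195, 203 and 179.8 (-2.03 ± 0.19). Runx1 rose by 1.14 on its brightest probe set. Of its dimmer probe sets, some were called higher (0.68 ± 0.22 and 1.09 ± 0.37), another was called lower (-1.03 ± 0.31) and the rest did not pass. Its call was lost when the median over its probe sets was used, so its direction is uncertain. Runx3 fell by 1.31 on the probe set used, and its other probe set read higher under TNF without passing the test.

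Hey1, Hey2, Heyl, Id1 and Id4, known as targets of Notch or BMP signals, fell. Hey1, Hey2 and Heyl encode the repressors that Notch receptors switch on in arteries. Hey1 read 868, 893 and 993 untreated and 214, 202 and 198 under TNF, a change of -2.16 ± 0.12. Hey2 read 1485, 1822 and 1441 untreated and 310.1, 429 and 381 under TNF, a change of -2.09 ± 0.13. Heyl fell by 1.97. Id1, a target of BMP signals, fell from 3993, 3956 and 3953 to 1051, 1086 and 1017 (-1.92 ± 0.14) and Id4 by 2.02, but Id3 read 10338, 10529 and 11215 untreated and 10016, 9426 and 9281 under TNF and did not pass the test (adjusted p = 0.191). In the whole list of helix-loop-helix, MYC, ID and ETS factors 11 of 50 rose (7 without untreated array 3) and 14 fell, with a median of 0.03, so the list as a whole was mixed. Of 37 SMAD, TCF/LEF, GLI, E2F and p53 factors 8 rose (21.6%) and 10 fell (27.0%). In the fits without untreated array 1 or 3 or TNF array 3, 5 rose. Smad6, an inhibitor of BMP signalling, changed by -1.01 ± 0.13, and the hedgehog factor gene Gli2 by -1.48 ± 0.22.

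**Figure D2:**
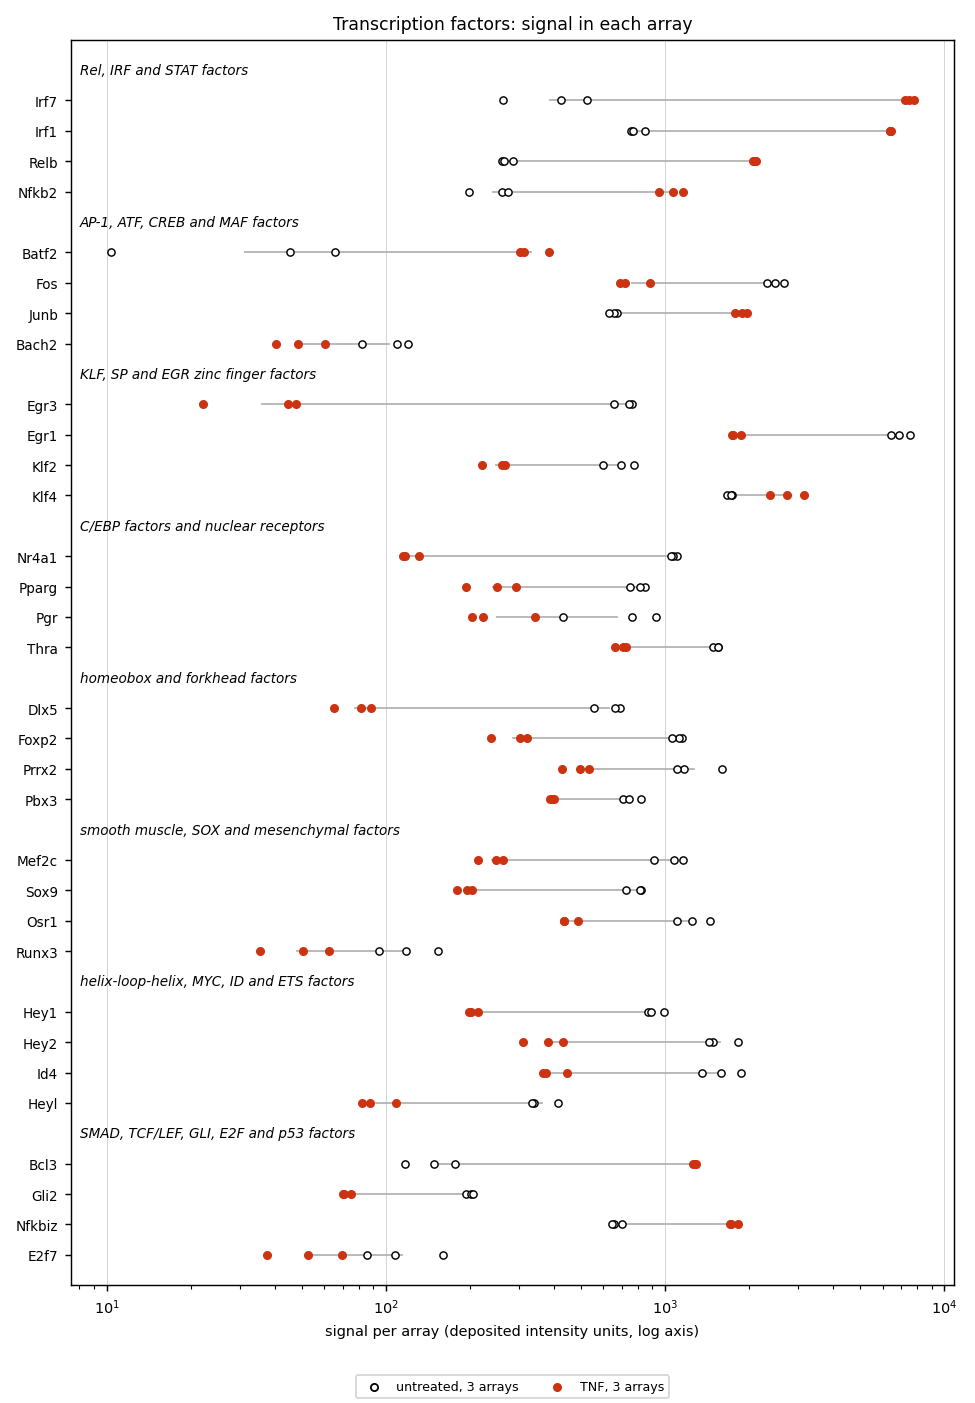
Signal of 32 transcription factors in each of the 3 untreated (open) and 3 TNF (red) arrays on a log axis in deposited intensity units, grouped by list, with a grey line between the group means of log signal. Irf7, Irf1, Relb, Nfkb2 and Bcl3 lie to the right under TNF, and Egr3, Nr4a1, Dlx5, Mef2c and the HEY genes to the left.

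Receptors for inflammatory signals rose more often than they fell, and receptors for growth and patterning signals fell more often. Of 23 tested members of the TNF receptor superfamily 9 rose and 3 fell. The TNF receptor genes themselves read 2666, 2745 and 2703 untreated and 3352, 3307 and 3277 under TNF for Tnfrsf1a (0.29 ± 0.05) and 495, 451 and 466 untreated and 928, 952 and 924 under TNF for Tnfrsf1b (0.99 ± 0.12). Both were higher in every TNF array. Tnfrsf9, the co-stimulatory receptor 4-1BB, was dim in untreated cells at 25.3, 45.9 and 11.7 and read 492, 485 and 514 under TNF. The death receptor gene Fas rose from 1779, 2006 and 1853 to 5688, 5575 and 5884 (1.61 ± 0.06). Cd40 rose by 2.24 ± 0.50 from dim signals, or 1.27 with 32 units added. Its call was lost when the fit was limited to the 6 arrays. Tnfrsf11b, which encodes the decoy receptor osteoprotegerin, fell from 8923, 10348 and 8476 to 4048, 4897 and 3513 (adjusted p = 0.00413). Ltbr, the lymphotoxin receptor gene, read 1616, 1424 and 1509 untreated and 1720, 1675 and 1698 under TNF and did not pass the test (adjusted p = 0.151).

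Of 37 cytokine and interferon receptors 16 rose (43.2%) and 3 fell (8.1%), with a median of 0.55. Il13ra2, the decoy receptor for interleukin-13, read 84.9, 90.5 and 117 untreated and 1623, 1537 and 1465 under TNF, a change of 3.99 ± 0.11 (limma adjusted p = 4.39e-10). Its signalling counterpart Il13ra1 went from 926, 1102 and 1034 to 2902, 3610 and 3273 (1.67 ± 0.12). Both receptors for the same ligand thus rose. Ifnar2, a chain of the type I interferon receptor, rose from 2341, 2262 and 2412 to 6993, 6708 and 6893 (1.55 ± 0.06), Il15ra by 2.72 and Il27ra by 1.70. Ghr, the growth hormone receptor gene, was among the brightest of the list at 19431, 20164 and 20718 untreated and 20012, 19904 and 21309 under TNF and did not pass the test (adjusted p = 0.868).

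Sensors of nucleic acid and microbial lipid were among the genes with the largest rises. Of 43 pattern recognition and scavenger receptors 19 rose (44.2%) and 7 fell (16.3%). The falls were 4 after centring and in each fit without untreated array 1 or 2 or any TNF array. Zbp1, a sensor of Z-form nucleic acid linked to cell death, had the largest change of any listed gene, from 2.84, 21.9 and 46.1 to 3681, 4222 and 3698. Its untreated signals lie at the dim end, so the change of 8.09 ± 0.77 (adjusted p = 8.23e-06) rests on an uncertain floor and became 6.21 with 32 units added. Tlr2, a receptor for bacterial lipoproteins, read 348, 290.4 and 328 untreated and 6949, 7546 and 7020 under TNF, a change of 4.48 ± 0.11. Nlrc5, which activates class I antigen genes, went from 115, 86.4 and 58.8 to 1119, 1269 and 1214 (3.84 ± 0.20). The groups of both genes were widely apart. Dhx58, a regulator of RNA sensing, rose by 3.73 and Olr1, the receptor for oxidised low-density lipoprotein, by 3.54.

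Of 65 G protein-coupled receptors 10 rose (15.4%) and 19 fell (29.2%), against 14.1% and 20.0% of all tested genes. S1pr3, a receptor for the lipid sphingosine 1-phosphate, went from 214, 158 and 208 to 1931, 2180 and 1960 (3.40 ± 0.31). Ccrl2, a chemerin-binding receptor, went from 131, 108 and 149 to 1598, 1636 and 1494 (3.61 ± 0.16). Gpr84, a receptor for medium-chain fatty acids, and Ackr1, a chemokine scavenger best known from red cells and venules, rose from dim signals by 3.82 and 2.71. With 32 units added these changes were 2.57 and 2.25. Lgr6, a receptor that enhances WNT signals, fell from 421, 325 and 291 to 46.2, 59.1 and 61.7 (-2.63 ± 0.16). Ackr3 and Calcrl, both bright, did not pass the test (adjusted p = 0.412 and 0.189).

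Growth factor receptors leaned down. Of 45 receptor kinases and related receptors 5 rose and 18 fell, or 8 and 13 after centring. Npr3, the clearance receptor for natriuretic peptides, read 4303, 4429 and 3800 untreated and 753, 805 and 708 under TNF, a change of -2.47 ± 0.19 (adjusted p = 1.58e-06). Fgfr3 fell by 2.04, Fgfr2 by 1.52 and the neurotrophin receptor gene Ntrk3 by 1.87, but Fgfr1 read 3133, 3314 and 3251 untreated and 2977, 3261 and 3141 under TNF and did not pass the test (adjusted p = 0.678). Pdgfra, a receptor for platelet-derived growth factor, was the exception among the named genes, rising from 2027, 2379 and 2083 to 6694, 6290 and 7278 (1.64 ± 0.11). Of 54 receptors of the TGF-beta, BMP, WNT, Notch and guidance families 8 rose (14.8%) and 25 fell (46.3%), with a median of -0.36. The WNT receptor gene Fzd8 fell from 1769, 1464 and 1505 to 446, 428 and 430.5 (-1.86 ± 0.10), and Fzd9 changed by -2.14. Fzd1 read 5390, 5574 and 5563 untreated and 5091, 4630 and 4557 under TNF (adjusted p = 0.144). A dimmer probe set of Fzd1 was called lower (-0.44 ± 0.15). Notch3, the Notch receptor of arterial smooth muscle, fell from 2330, 2097 and 2363 to 1174, 1162 and 962 (-1.05 ± 0.13), alongside the HEY genes described above. Of 19 integrins 9 fell (47.4%) and 1 rose (5.3%), and none to 2 rose when an array was left out. Itga8, a smooth muscle integrin subunit, fell from 3040, 3146 and 2915 to 542, 649 and 579 (-2.37 ± 0.12), Itga1 by 0.63, and Itgb8 did not pass the test (adjusted p = 0.866).

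**Figure D3:**
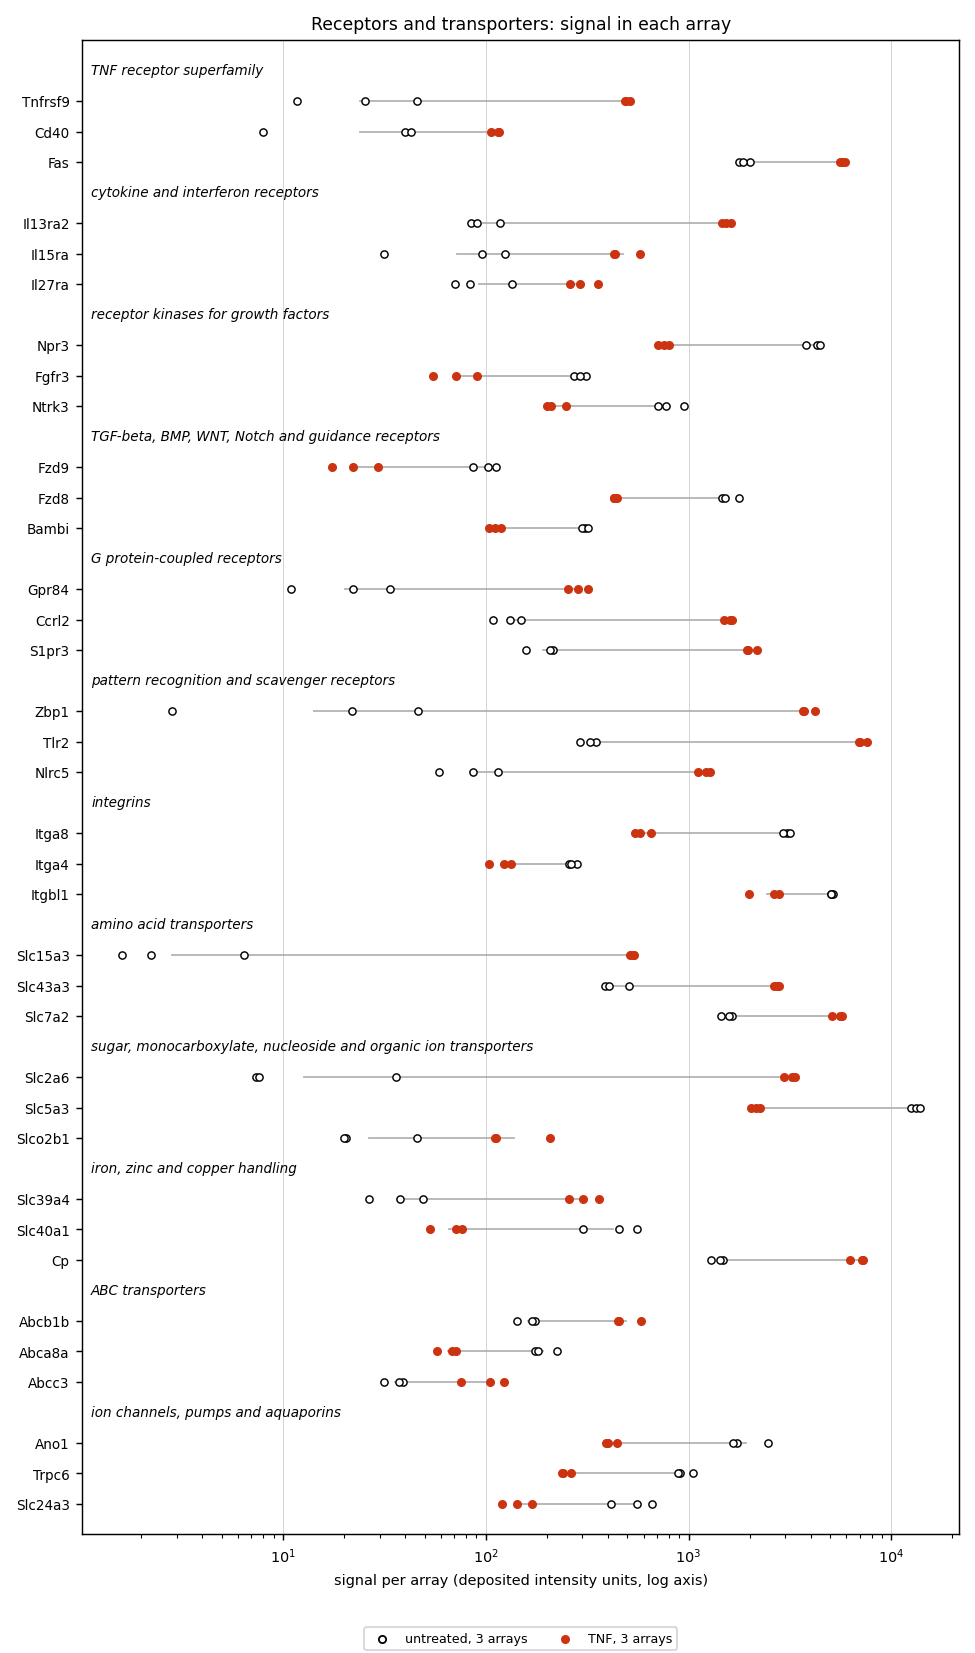
Signal of named receptors and transporters in each of the 3 untreated (open) and 3 TNF (red) arrays on a log axis in deposited intensity units, grouped by list. The untreated points of Zbp1, Slc15a3, Slc2a6, Gpr84 and Tnfrsf9 scatter at the dim end of the scale, whereas Tlr2, Fas, Cp and Slc5a3 are bright in both groups.

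Among the listed genes, transporters of peptides, sugar derivatives and amino acids included the largest log2 rises outside the receptors. Slc15a3, a lysosomal peptide and histidine carrier, read 1.61, 6.43 and 2.23 untreated and 530.0, 541 and 514 under TNF. Slc2a6, a lysosomal member of the glucose transporter family, read 7.39, 36.1 and 7.65 untreated and 2941, 3361 and 3235 under TNF. The untreated signals of both were at the dim end, and their changes of 7.53 and 7.97 became 3.99 and 6.08 with 32 units added. Slc43a3, a purine base carrier, rose from clearly measured signals of 387, 404 and 509.9 to 2633, 2790 and 2725 (2.66 ± 0.13). Slc7a2, which imports arginine, went from 1634, 1585 and 1451 to 5116, 5594 and 5732 (1.82 ± 0.10). Slc7a11, the cystine importer, went from 1173, 1767 and 1013 to 4058, 4816 and 4353 (1.78 ± 0.22). The other arginine importer named, Slc7a1, read 2663, 2258 and 2359 untreated and 2844, 2624 and 2830 under TNF and did not pass the test (adjusted p = 0.438). Among 35 amino acid transporters 10 rose (28.6%) and 9 fell (25.7%), and after centring 10 rose and 5 fell.

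Among the named carriers of small molecules, Slc5a3, which imports myo-inositol, read 12479, 13273 and 13761 untreated and 2030, 2156 and 2254 under TNF, a change of -2.62 ± 0.14 (limma adjusted p = 9.36e-08). Slc6a6, which imports taurine, went from 5594, 5617 and 5516 to 1893, 1715 and 1699 (-1.66 ± 0.17). Both were bright and clearly lower in all TNF arrays. Slc16a4, of the monocarboxylate family, fell by 2.16. In the list of sugar, monocarboxylate, nucleoside and organic ion transporters 12 of 54 rose and 12 fell. Each share was 22.2%, against 14.1% and 20.0% of all tested genes. Slco2b1 rose by 2.37 ± 0.80 from dim signals, or 1.52 with 32 units added. Its call was lost in 5 of the 6 fits that left out an array (adjusted p from 0.0409 to 0.123).

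Genes of metal handling rose more often than they fell. Of 44 genes of iron, zinc and copper handling 19 rose (43.2%) and 3 fell (6.8%), with a median of 0.27. Cp, which encodes the copper ferroxidase ceruloplasmin, read 1486, 1287 and 1429 untreated and 6220, 7239 and 7143 under TNF, a change of 2.29 ± 0.08 (adjusted p = 1.64e-09). Mt2, a metallothionein that binds zinc, went from 4543, 5326 and 4979 to 14754, 15789 and 15719 (1.64 ± 0.07). The zinc importer gene Slc39a4 rose by 3.05 from 37.9, 26.7 and 49.0, or by 2.28 with 32 units added. The iron exporter gene Slc40a1, which encodes ferroportin, fell from 302, 554 and 453 to 53.3, 76.1 and 71.3 (-2.68 ± 0.20). Heph, a membrane ferroxidase that works with ferroportin, fell from 3636, 3532 and 4115 to 1425, 1613 and 1146 (-1.44 ± 0.13). Thus the secreted and the membrane ferroxidase moved in opposite directions. Fth1, the ferritin heavy chain gene, was bright at 24060, 26430 and 25546 untreated and 26239, 26070 and 26515 under TNF. It did not pass the test (adjusted p = 0.594). These signals lay close to the highest of any probe set on these arrays (26914 to 29904). Whether the Fth1 probes could still register a change was not tested.

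Of 31 ABC transporters 10 rose (32.3%) and 7 fell (22.6%), with 4 falls after centring or without TNF array 1. Abca1, which exports cholesterol, rose from 2297, 3286 and 2958 to 6684, 7027 and 7122 (1.30 ± 0.13), and Abcb1b, a multidrug exporter gene, from 175, 169 and 142 to 453, 580.2 and 448. Abca8a and Abca9, neighbours in the same subfamily, fell by 1.56 and 1.34, the latter call being lost when the median over its probe sets was used. Of 69 ion channels, pumps and aquaporins 11 rose (15.9%) and 18 fell (26.1%), against 14.1% and 20.0% of all tested genes. Falls included carriers of calcium and chloride in smooth muscle. Trpc6, a receptor-operated cation channel, read 1053, 908 and 892 untreated and 239.8, 263 and 239 under TNF, a change of -1.94 ± 0.11. Ano1, a calcium-activated chloride channel, went from 2470, 1726 and 1652 to 402, 393 and 443 (-2.22 ± 0.24). Cacna1c, the pore-forming subunit of the L-type calcium channel and named after its values were seen, went from 149, 145 and 150.2 to 76.2, 81.0 and 59.7 (-1.05 ± 0.11). The sodium-calcium exchangers Slc8a1 and Slc24a3 changed by -1.5 and -1.91, and the call of Slc8a1 was lost when the median over its probe sets was used. The calcium pump gene Atp2a2 read 6370, 5685 and 5638 untreated and 5167, 5094 and 5303 under TNF. It did not pass the test on this probe set (adjusted p = 0.337). A dimmer probe set of the gene was called lower (-0.65 ± 0.18), and its others did not pass.

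The matrix genes did not move as a block. Elastin and several minor collagens and proteoglycans fell. Col1a2 read 21404, 20619 and 21878 untreated and 21135, 20687 and 21998 under TNF, with a change of 0.00 ± 0.07 (adjusted p = 0.99). Fn1, fibronectin, changed by 0.06 ± 0.08, and Sparc by 0.07 ± 0.08, and neither passed the test. Whether the brightest probes of Col1a2 and Fn1 could still register a change was not tested. The next brightest probe set of Col1a2 (-0.10 ± 0.09) and a dimmer one of Fn1 (-0.17 ± 0.14) did not pass either. Sparc, at 25118, 26178 and 27543 and 28234, 25783 and 28846, lay close to the highest signal of any probe set on these arrays (26914 to 29904), so whether its probes could still register a change was not tested. Col5a2 also did not pass on its brightest probe set (0.03 ± 0.06), but a second, still bright, probe set of the gene fell by 0.79. Eln, the elastic fibre protein, fell from 10434, 7664 and 8048 to 655, 898 and 919, a change of -3.41 ± 0.25 (adjusted p = 9.33e-07). The lowest untreated array was several times brighter than the highest TNF array.

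Of 33 collagens 17 fell (51.5%) and 3 rose (9.1%), with a median of -0.47, and 13 fell after centring. Col11a1, a cartilage-type fibrillar chain, went from 1127, 629 and 617 to 91.1, 108 and 128 (-2.81 ± 0.41). Col10a1, a network collagen of growth cartilage, went from 1319, 967 and 1188 to 429.6, 424 and 425 (-1.43 ± 0.19). All chains of type IV collagen, the network of basement membranes, were called lower, but by very different amounts. Col4a4 and Col4a3 changed by -3.35 ± 0.49 and -2.38 ± 0.52. Named after their values were seen, Col4a6 changed by -1.18 ± 0.25, Col4a5 by -0.72 ± 0.12, Col4a2 by -0.23 ± 0.05 and Col4a1 by -0.18 ± 0.06. The chains Col4a1 and Col4a2 were bright in both groups, and both calls were lost after centring. The call of Col4a1 was near the threshold (adjusted p = 0.0464) and was lost in 5 of the 6 fits without an array (adjusted p from 0.0202 to 0.146).

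Of 60 elastic fibre and matrix glycoprotein genes 9 rose and 21 fell. Ntn1, a guidance protein, rose from 560.4, 587 and 526 to 2263, 2159 and 2222 (1.99 ± 0.09), and its relative Ntn4, of basement membranes, fell from 7456, 7957 and 8445 to 2568, 3152 and 2388 (-1.57 ± 0.10). Lama2, a laminin chain of muscle, fell by 1.98 and Ccn4, a WNT-induced matricellular protein, by 1.60. Of 45 proteoglycan and hyaluronan genes 11 rose (24.4%) and 15 fell (33.3%). Omd, osteomodulin, went from 4922, 4844 and 4936 to 757, 881 and 725 (-2.64 ± 0.10). Aspn, asporin, went from 5829, 7383 and 6558 to 1101, 1382 and 1052 (-2.49 ± 0.39). Both belong to the small leucine-rich proteoglycans, as does the bright Bgn. It read 22858, 22655 and 24614 untreated and 24480, 23451 and 24997 under TNF and did not pass the test (adjusted p = 0.622). The Bgn signals were not far under the highest of these arrays (26914 to 29904), and whether they could still register a change was not tested. Agrn, the heparan sulphate proteoglycan agrin, rose from 1047, 789 and 1121 to 5598, 5608 and 5044 (2.47 ± 0.13), and Srgn, a granule proteoglycan, by 1.80. Cspg4, a pericyte proteoglycan, fell by 2.12.

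Enzymes that shape the matrix rose and fell in like numbers on the deposited scale, but not after centring. Of 27 collagen processing and cross-linking genes 11 rose (40.7%) and 10 fell (37.0%), or 11 and 5 after centring. Tgm2, a protein cross-linking enzyme, went from 1712, 1181 and 1009 to 6726, 6998 and 6940 (2.44 ± 0.18, adjusted p = 1.02e-06). P4ha2, a collagen prolyl hydroxylase, rose by 0.80, and the collagen chaperone gene Serpinh1 read 16770, 17771 and 17552 untreated and 16760, 16004 and 16629 under TNF without passing the test (adjusted p = 0.48). Of 70 matrix proteases and inhibitors 21 rose (30.0%) and 21 fell (30.0%), or 23 and 14 after centring. Serpina3n, a serine protease inhibitor, went from 261, 269.6 and 201 to 5401, 5047 and 5389 (4.45 ± 0.10). Adamts7, a protease linked to vascular disease, went from 27.6, 9.52 and 44.6 to 473, 461 and 476 (4.37 ± 0.41). Mmp13, a collagenase, went from 4.97, 15.7 and 0.939 to 212, 262 and 240.3. The untreated signals of Mmp13 and Adamts7 were at the dim end, and with 32 units added their changes were 2.80 and 3.13. Prss35, a secreted serine protease-like protein, fell from 2180, 2502 and 2216 to 398, 518 and 415 (-2.38 ± 0.20).

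Metabolic genes changed in both directions. Xdh, which makes uric acid, read 226, 262 and 266 untreated and 3572, 4002 and 4247 under TNF, a change of 3.97 ± 0.10 (limma adjusted p = 1.85e-10). Gda, a guanine deaminase, rose by 2.69 and Ampd3, which deaminates AMP, from 327, 382 and 320.0 to 1527, 1585 and 1700 (2.23 ± 0.08). Cmpk2, a mitochondrial nucleotide kinase induced by interferon, went from 197, 159 and 178 to 4762, 5938 and 5159 (4.89 ± 0.17). In the full list of serine, one-carbon, sulfur and nucleotide metabolism 14 of 58 rose (24.1%) and 13 fell (22.4%), or 16 and 8 after centring.

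Ch25h, which makes 25-hydroxycholesterol, went from 126, 121 and 136 to 3401, 3578 and 3309 (4.75 ± 0.16, adjusted p = 1.92e-09). It was far brighter in every TNF array. In the list of cholesterol, oxysterol, steroid and retinoid metabolism 9 of 48 genes rose (18.8%) and 15 fell (31.2%). Dhrs3, a retinal reductase, read 1066, 799 and 907 untreated and 165, 175 and 119 under TNF, a change of -2.60 ± 0.15. Cyp26b1, which degrades retinoic acid, went from 537, 618 and 606 to 182, 149 and 149 (-1.88 ± 0.20). The vitamin D hydroxylase gene Cyp24a1 fell by 1.54, and the sterol synthase gene Hmgcs1 did not pass the test (adjusted p = 0.184) on its brightest probe set. Some of its other probe sets were called lower, with changes of -0.44, and the rest did not pass.

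Gucy1a1, Gucy1b1 and Pde5a fell, all of them genes of cyclic GMP, the messenger of nitric oxide in smooth muscle. Gucy1a1 and Gucy1b1 encode the chains of soluble guanylate cyclase, and Pde5a the phosphodiesterase that removes cyclic GMP. Gucy1a1 read 1239, 1260 and 1161 untreated and 206, 226 and 210.2 under TNF, a change of -2.51 ± 0.41. Gucy1b1 read 766, 691 and 716 untreated and 174, 246 and 145 under TNF, a change of -1.98 ± 0.30. Pde5a read 2209, 1877 and 1843 untreated and 336, 393 and 306 under TNF, a change of -2.52 ± 0.13. That their groups do not overlap was a condition for naming them. In the same list of arginine, nitric oxide, tryptophan, polyamine and itaconate enzymes 4 of 37 rose (10.8%) and 13 fell (35.1%). Acod1, which makes itaconate, and Arg2, an arginase, rose from dim signals of 13.5, 2.89 and 1.81 and 30.6, 10.2 and 2.65 to 434, 528 and 486 and 164, 167 and 158.

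Fabp4 and Fabp5, fatty acid carriers, went from 5133, 6862 and 6975 to 1494, 1420 and 1307 (-2.16 ± 0.14) and from 9850, 10864 and 11950 to 3250, 3042 and 3154 (-1.79 ± 0.10). Lpl, which frees fatty acids from lipoproteins, went from 5141, 6108 and 6521 to 1943, 1389 and 1775 (-1.81 ± 0.13), and the monoglyceride lipase gene Mgll fell by 2.14. These falls accompanied that of Pparg. The adipocyte markers Cidec and Lep lay below the 30th percentile in all 6 arrays, but Adipoq did not. Adipoq read 91.7, 234 and 199 untreated and 95.9, 65.5 and 79.9 under TNF, a change of -1.03 that did not pass the test. The 4 adipocyte markers summed to 121 to 253 untreated and 105 to 147 under TNF, with most of the sum in Adipoq. The part of fat cells in these falls was not tested. Of 37 genes of fatty acid oxidation 4 rose (10.8%) and 14 fell (37.8%), and 7 fell after centring. Acadm, medium-chain acyl-CoA dehydrogenase, fell from 3540, 3745 and 3955 to 1730, 1661 and 2010 (-1.06 ± 0.08), but Hadh, a later enzyme of the same cycle, read 4461, 4377 and 4679 untreated and 4600, 4669 and 4750 under TNF without passing the test (adjusted p = 0.699). Of 67 genes of lipid synthesis and storage 14 rose (20.9%) and 15 fell (22.4%), and Ugcg, a glucosylceramide synthase, rose by 1.61.

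Of 42 genes of glycolysis and the pentose phosphate pathway 13 rose (31.0%) and 10 fell (23.8%), or 15 and 6 after centring. The median change was 0.11 and the range -2.89 to 1.14, with 3 rises and 1 fall of at least 2-fold. Hk2, hexokinase 2, rose from 629, 633 and 567 to 1151, 1193 and 1398 (1.03 ± 0.10). Ldhb, the heart-type lactate dehydrogenase chain, fell from 809, 776 and 789.7 to 379, 393 and 387 (-1.03 ± 0.10), while the bright Ldha read 14351, 13789 and 14292 untreated and 14850, 14345 and 15204 under TNF and did not pass the test (adjusted p = 0.461). Of 47 genes of the tricarboxylic acid cycle and mitochondrial metabolism 6 rose (12.8%) and 17 fell (36.2%). The rises were 3 without untreated array 2 or any TNF array. After centring 7 rose and 6 fell, so the lean of that list depends on the scaling. Idh1, cytosolic isocitrate dehydrogenase, fell by 0.69 and Me1, the cytosolic malic enzyme, by 0.76. Mdh2 changed by 0.00 ± 0.05 and did not pass the test.

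Of 58 glutathione, redox and detoxification genes 14 rose (24.1%) and 19 fell (32.8%), or 16 and 14 after centring. Sod2, mitochondrial superoxide dismutase, went from 2942, 2890 and 2858 to 11883, 12148 and 12185 (2.06 ± 0.06, adjusted p = 3e-10). Cybb, the catalytic chain of the phagocyte oxidase, went from 910.3, 923 and 979.6 to 4558, 5312 and 4735 (2.37 ± 0.12). The gene that makes superoxide and the one that removes it thus both rose. Fmo2, a drug-metabolising enzyme of the same list, fell from 1367, 1384 and 1306 to 167, 176 and 173 (-2.98 ± 0.22), Aox3 by 3.54 and Sult1a1 by 1.90. Of 29 prostaglandin and eicosanoid genes 6 rose (20.7%) and 2 fell (6.9%), or 5 without TNF array 2. Ptgs2, the inducible cyclooxygenase, rose from 1216, 934 and 905 to 1676, 2154 and 2255 (1.00 ± 0.21), and Ptgis, prostacyclin synthase, fell from 5192, 5707 and 5614 to 4087, 3532 and 3634 (-0.56 ± 0.08).

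**Figure D4:**
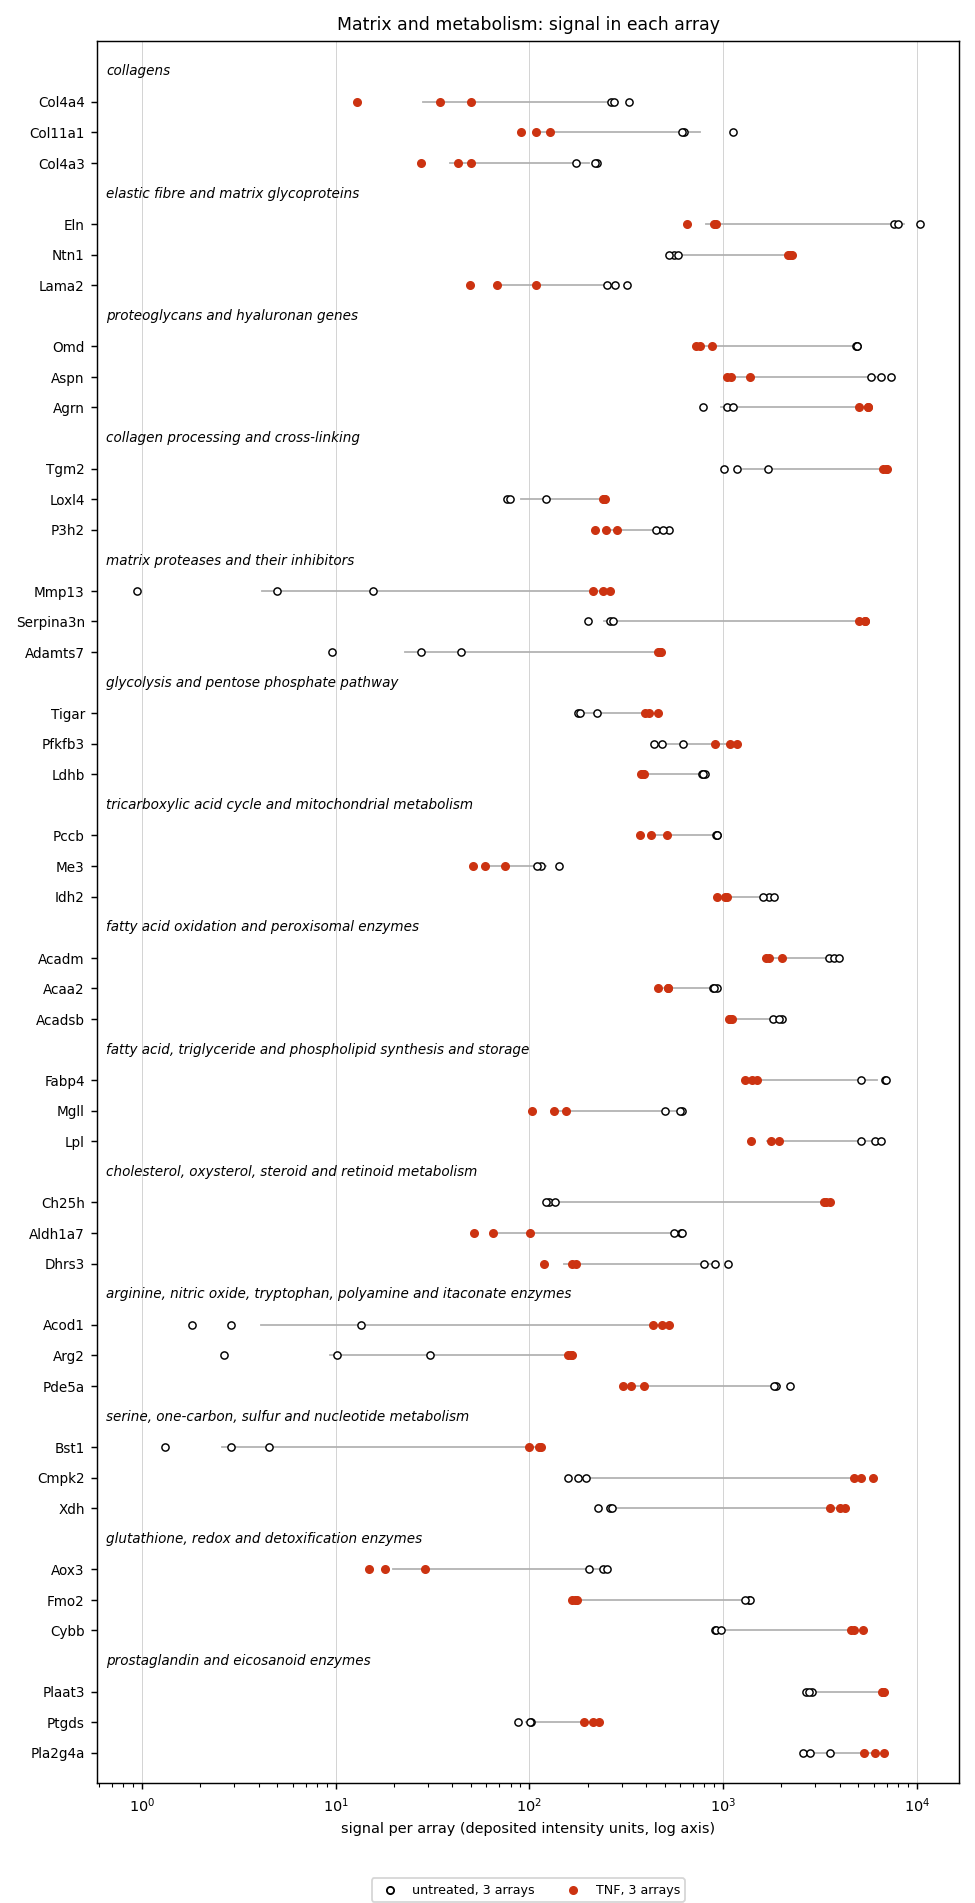
Signal of named matrix and metabolic genes in each of the 3 untreated (open) and 3 TNF (red) arrays on a log axis in deposited intensity units, grouped by list. Eln, Omd, Pde5a and Fmo2 lie to the left under TNF and Serpina3n, Ch25h, Xdh and Cmpk2 to the right, and the tricarboxylic acid cycle and fatty acid oxidation genes shift by short distances.

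The effect of TNF was also measured in the same kind of cells given exogenous TNC, 4 arrays with and 4 without TNF, none of them used above. There 1474 genes rose (9.43%) and 1928 fell (12.3%). Of the 2200 genes higher without TNC, 838 were higher with it, 38.1% of the first list and 56.9% of the second. Of the 3135 lower genes 1155 were shared, 36.8% and 59.9% of the lists. The lists moved in opposite directions for 121 and 99 genes. A test of the difference between both effects passed for 2898 genes (18.5%). Among the 170 changed list genes named by rule, 147 had the same sign with TNC and 105 passed the test there in that direction, while 6 passed in the opposite one. These genes were picked for clear changes without TNC, so a smaller change in other arrays carries no test of its own.

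In each class the gene with the largest rise and the one with the largest fall among those named by rule were compared. They were picked for large changes without TNC, which favours a smaller change with it. Irf7 rose by 1.81 ± 0.24 with TNC against 4.27 without, a difference of -2.47 ± 0.37 (limma adjusted p = 0.000753). Slc40a1 changed by 0.14 ± 0.18 with TNC, where its mean signal was already 138 before TNF, and the difference was 2.82 ± 0.27 (adjusted p = 3.14e-05). Eln started at a mean of 447 with TNC, far under its level without, and fell by 0.94 (difference 2.46 ± 0.33, adjusted p = 0.000339). Mmp13 started at a mean of 1580 with TNC and reached 9750, a rise of 2.67 ± 0.63. Without TNC its untreated signals lay under the 30th percentile of the arrays (18.1 to 23.1 units), where a log2 change has no firm floor: it was 5.83, or 2.80 with 32 units added, so the rises with and without TNC cannot be ordered. Mean signals before TNF were likewise under that percentile for Acod1 in both settings (6.06 and 5.45), and Acod1 reached 483 without TNC and 174 with it. Aox3 ended at means of 20.6 and 8.31, at or under that percentile, from 231 without and 70.2 with TNC, so the sizes of its falls cannot be compared.

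**Figure D5:**
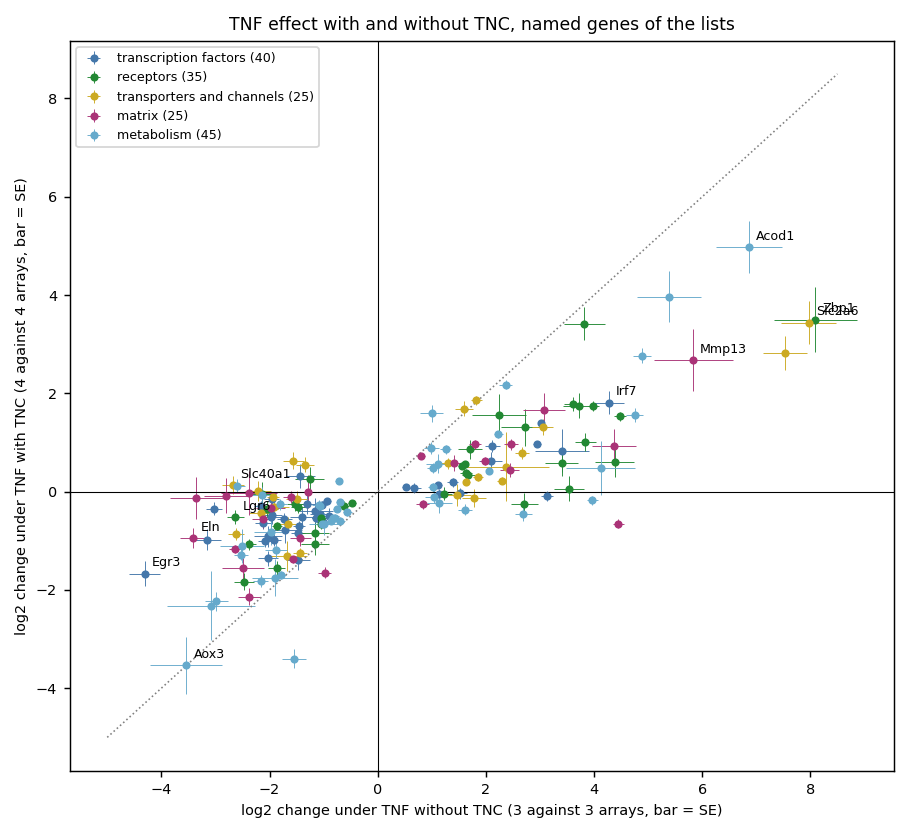
Log2 change under TNF of the 170 changed list genes named by rule, without TNC (horizontal, 3 against 3 arrays) and with exogenous TNC (vertical, 4 against 4 arrays), coloured by class, with bars of 1 SE and a dotted line of equal change. Most points lie in the lower left and upper right quadrants and closer to the horizontal axis than the dotted line.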

How the data were processed

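RNA was hybridised to Affymetrix Mouse Genome 430 2.0 arrays, per the labels' protocols. The authors deposited 1 table of linear intensity values for 45101 probe sets on 22 arrays, made with Affymetrix Expression Console per the submitters' processing notes. The deposited intensity values have a mean of 500 on every array over the middle 96% of probe sets, which fixes the scale but not the medians, and values down to 0.037 leave dim genes imprecise. No source used here states the background and summary steps or any batch. Depth does not apply to arrays, and their number limits the precision.

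Left out were 64 control probe sets, 932 that the platform annotation ties to more than 1 symbol, and 9160 that it does not name. Of the other 34945, the probe set with the highest mean log2 signal over all arrays stood for each of 18193 genes. A gene was tested if it reached its array's 30th percentile (18.1 to 23.1 units) in at least 3 of 14 cell arrays, which left 15636. Log2 values were fitted with limma 3.58.1 in R 4.3.3 with 4 groups (10 residual degrees of freedom, empirical Bayes moderation), and p-values were adjusted by the Benjamini-Hochberg method. On simulated data with 200 changed genes of 15636, 70% of changes of 1 and 77% of changes of 2 on the log2 scale were called. There 3.29% of calls were false. In the real comparison 34.1% of genes were called, a far larger share than was changed in the simulation. Rates of this kind depend on that share, so they do not describe the real comparison.

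The members and the gene lists were chosen with earlier results of these data known, so they support nothing by themselves. The text names, for each list, up to 5 called genes with groups that do not overlap and a higher group mean of at least 100 units and the 2 brightest genes that were not called, then the 15 largest rises and falls of all genes (at least 200 units), markers and housekeeping genes. Of 309 tested genes that the text could name, 5 were added after their values were seen. Alternatives were median centring, quantile normalization, log2(value + 32), no filter or a 50th percentile filter, the median over probe sets, the probe set brightest in the 6 arrays, a fit of the 6 arrays alone, trended robust variances, a replicate block, and leaving out each of the 6 arrays. Replicate numbers did not pair arrays: correlations of same-numbered arrays ran from -0.014 to 0.057. Promoter motifs were searched in Python 3.11.15, and 231 of the 309 genes had a RefSeq window.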

Additional observations from a re-analysis of the deposited data

Results flagged for a closer look

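The TNF effect was compared with that in cells given exogenous TNC for the gene with the largest rise and the largest fall in each class among those named by rule. The difference itself passed the limma test for 8 of these 10 genes, against 18.5% of all tested genes. The 10 were picked for large changes without TNC, which form one side of the difference, so a smaller change with TNC was favoured by the choice and the count supports nothing about them. As effect with TNC minus effect without, on the log2 scale, it was -2.47 for Irf7 (adjusted p = 0.000753), -4.59 for Zbp1 (0.00881) and -4.52 for Slc2a6 (0.000768), which rose in both settings. The untreated signals of Zbp1 and Slc2a6 were dim, so the sizes of their differences rest on an uncertain floor. For Mmp13 it was -3.16 (adjusted p = 0.0427), but its untreated signals were under the 30th percentile and its rise without TNC fell to 2.80 with 32 units added, against 2.67 with TNC on the unshifted scale, so that difference is not measured. It was 2.64 for Egr3 (adjusted p = 0.000673), 2.11 for Lgr6 (4.59e-05) and 2.46 for Eln (0.000339), which fell in both settings. For Slc40a1 it was 2.82 (adjusted p = 3.14e-05), since the gene fell without TNC and changed by 0.14 with it.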

How the results depend on the processing

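The number of genes higher under TNF stayed within 1.5 times of 2200 in all 16 alternatives (1613 to 2610). The number of lower genes did so in 15, from 2601 to 3290, and was 1932 after centring each array on its median. Leaving out each array in turn gave 1885 to 1988 higher and 2633 to 2781 lower genes. With the replicate block the counts were 2077 and 2973, although the replicate numbers did not pair the arrays, and the block removed the calls of Th and Col4a1 among the named genes. Of 214 named genes that were called, 197 kept call and direction everywhere and 16 lost the call in at least 1 alternative. The median over probe sets turned Runx3 to 0.09 (adjusted p = 0.925), Klf3 to -0.33 (0.00964) and Col5a2 to -0.38 (0.00133); Runx3 has a probe set that reads the other way, and the cause was not tested. Of 68 list counts 22 moved by over 1.5 times somewhere, 13 of them under centring. Changes of genes whose untreated signal is near 20 units or less are limited by signal over background.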

Other observations

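The deepest falls over all tested genes included several outside the lists. Sost, which encodes the WNT inhibitor sclerostin of bone, read 2399, 3369 and 2144 untreated and 35.0, 39.2 and 24.0 under TNF, a log2 change of -6.33 ± 0.40 (limma adjusted p = 2.66e-07). Inmt, a methyltransferase of indole amines, read 2566, 2956 and 2841 untreated and 35.0, 46.9 and 57.1 under TNF, a change of -5.94 ± 0.52. The untreated arrays of both genes were bright and the TNF arrays dim. Rgs4, a brake on G protein signals, went from 2124, 2262 and 2051 to 223, 166 and 257 (-3.34 ± 0.20), and Rgs7bp, which anchors another such regulator, changed by -3.45 ± 0.57. Gja3, a gap junction protein, went from 719.7, 588 and 672 to 63.3, 56.8 and 51.2 (-3.53 ± 0.23). Pdlim3, a protein of the muscle actin cytoskeleton, went from 325, 466 and 367 to 59.3, 26.3 and 43.8 (-3.22 ± 0.25), in the direction of Cnn1. Gdf10, a secreted factor of the BMP family, changed by -3.22 ± 0.80 and C1qtnf3, a secreted protein, by -4.62 ± 0.98 with untreated arrays at 409, 85.3 and 156, the widest spread among these genes.

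Beyond chemokines, the largest rises included Lcn2, Saa3 and Ubd. Lcn2, an iron-siderophore binding protein, read 29.0, 23.4 and 23.7 untreated and 2025, 2965 and 2683 under TNF, a change of 6.65 ± 0.13. Saa3, an acute phase apolipoprotein, went from 23.5, 42.1 and 92.8 to 8146, 12620 and 12021 (7.89 ± 0.37). Ubd, a ubiquitin-like modifier induced by TNF and interferon, went from 44.1, 37.9 and 29.3 to 4938, 5422 and 5122 (7.14 ± 0.32). With TNC, Lcn2 and Saa3 already read means of 23710 and 24212 before TNF, near the highest signals of those arrays (28219 to 31626), and changed by 0.16 ± 0.11 and 0.07 ± 0.32. Whether they could still rise there was not tested. Ubd rose by 4.19 ± 0.27.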
